A study of Mus musculus with 2 samples.

Results

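Epcam, Cdh1, Cldn7, Esrp1, Esrp2 and Grhl2, 6 genes that mark and maintain epithelial identity, were followed in single cells of newborn mouse dorsal skin. They were taken by symbol from the 32285 genes of the deposited matrices, and all 6 were found. The genes were chosen by the UMI levels of these same libraries, above all a higher Epcam level in epithelial cells of the induced library, so the levels below are a description. A control library came from skin with the genotype Wildtype and an induced library from skin with the genotype miR-200b induced. Both carried the treatment label Dox and were taken on postnatal day 3, and each mixed epidermal and dermal suspensions at 30 to 70. The labels give no construct, no promoter or cell type that drives the induction, no strain and no number of animals. Age, dissociation and Dox were common to both groups. A single library stood for each group, so the groups could be described side by side but not tested.

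EpCAM is a cell surface glycoprotein of simple epithelia, which in mouse skin is known from hair follicles and from Langerhans cells, the antigen-presenting cells of the epidermis. It binds claudin-7, a tight junction protein, and protects it from degradation. E-cadherin, the product of Cdh1, joins neighbouring cells at adherens junctions and is also made by melanocytes and Langerhans cells, which it holds to keratinocytes. ESRP1 and ESRP2 are splicing regulators that give transcripts their epithelial isoforms. GRHL2 is a Grainyhead-like transcription factor that activates genes of epithelial junctions. MicroRNAs of the miR-200 family repress Zeb1 and Zeb2, whose products silence Cdh1 and other epithelial genes through E-box sequences, and epithelial cells normally have the microRNAs and little Zeb1 or Zeb2.

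The mature microRNAs are shown because the induced gene belongs to this family and its seed, bases 2 to 8, decides which transcripts can pair. Capitals mark the seed, and the sequences are RefSeq's on GRCm38.p6.
miR-200b-3p: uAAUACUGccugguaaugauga
miR-429-3p: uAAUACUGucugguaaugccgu
miR-200c-3p: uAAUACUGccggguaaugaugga
miR-200a-3p: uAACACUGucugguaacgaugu
miR-141-3p: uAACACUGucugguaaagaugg
The first 3 share the seed AAUACUG and the last 2 share AACACUG. Mir200b, Mir200a and Mir429 lie on chromosome 4, minus strand (chr4:156055685-156055706 for mature miR-200b). In the GENCODE vM21 annotation of GRCm38 all 6 genes had a 3′ UTR, of which the longest per gene was searched. None held the 7-base match to miR-200b, CAGTATT, which was found in 13.3% of 20855 genes with a 3′ UTR. One 3′ UTR, that of Grhl2 (chr15:37233036-37363569, plus strand), held the miR-200a match CAGTGTT, found in 17.2% of genes. It starts at base 2337 of a 3′ UTR of 2718 bases, and 30 bases around it (chr15:37363172-37363201) are given with the match in capitals.
Grhl2 3′ UTR: attgtcaaaacttcctCAGTGTTtagaaat
A match is a description of letters, not a working site.

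Promoters are shown for Epcam and Cldn7, whose levels were both higher in induced basal cells, and which were the members with an entry in the RefSeq promoter table. The E-box CAGGTG or CACCTG, read on both strands, is in capitals.
Epcam (chr17:87635729-87636028, plus strand): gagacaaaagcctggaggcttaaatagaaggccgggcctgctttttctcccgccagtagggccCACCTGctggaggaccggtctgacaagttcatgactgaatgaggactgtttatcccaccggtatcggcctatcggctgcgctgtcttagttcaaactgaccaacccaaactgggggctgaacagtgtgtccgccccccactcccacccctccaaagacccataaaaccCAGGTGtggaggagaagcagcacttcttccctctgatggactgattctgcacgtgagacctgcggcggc
Cldn7, second start (chr11:69965171-69965470, plus strand): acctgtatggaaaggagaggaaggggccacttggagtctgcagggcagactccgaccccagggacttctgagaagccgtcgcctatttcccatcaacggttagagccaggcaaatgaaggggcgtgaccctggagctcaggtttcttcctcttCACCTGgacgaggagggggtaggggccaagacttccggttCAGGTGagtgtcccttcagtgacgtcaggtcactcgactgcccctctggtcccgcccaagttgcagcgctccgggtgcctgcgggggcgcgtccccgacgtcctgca
In Epcam the E-boxes begin 187 and 19 bases before the start, and in Cldn7 97 and 57 bases before it. The other Cldn7 start (chr11:69964529-69964828) held 0. Of 32851 promoters of the same length, 20.2% held this E-box. The Grainyhead-like motif AACCNGGTT was in 0.271% of promoters and in 0 of these windows.

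The control library held 9072 barcodes and 100409201 UMIs (unique molecular identifiers, each standing for 1 captured RNA molecule), and the induced library 9114 barcodes and 119705137 UMIs. They shared 74 barcodes, 10 of which passed the filter in both. Of all barcodes, 823 control and 1678 induced ones had 15% or more mitochondrial UMIs and were left out, while the medians over all barcodes were 6.50% and 6.73%. The part of this loss in the differences below was not tested. After filtering and removal of likely doublets, 3972 control and 4106 induced epithelial cells remained, with medians of 16094 and 21125.5 UMIs, and 844 and 784 other cells. The 6 genes and the related genes listed further on were left out of the clustering. In 28 of 39 epithelial clusters, 95% or more of the cells belonged to a single library. Most comparisons within a class therefore set different clusters against each other, and a cluster of 1 library may be that library and not a cell type. Class names were rebuilt from markers, and "-like" is meant with each. Gm13648, the transcript that spans the miR-200b locus, stood at 2.20 CPM (UMIs of the gene scaled to the UMI total of the class) in control and 528 CPM in induced epithelial cells.

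Over all epithelial cells, the adhesion genes were higher in the induced library and Grhl2 was lower, while the splicing regulators were nearly level. Epcam had 327 CPM in control cells (25416 UMIs) and 612 CPM in induced cells (60181 UMIs). The log2 ratio of induced over control was 0.90, with a 95% interval of 0.88 to 0.93. This interval and all that follow cover counting error in these libraries only. The median gene lay at -0.08, and relative to it Epcam stood at 0.99, just under a 2-fold difference. Among 13379 genes with at least 100 UMIs, 9.78% had a higher ratio than Epcam.

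Cldn7 was a scarce transcript with the widest gap of the 6. It had 149 UMIs in control epithelial cells (1.92 CPM) and 1166 UMIs in induced ones (11.9 CPM), a log2 ratio of 2.63 (2.38 to 2.88), and 1.36% of genes ranked above it. Cldn7 was the 1 member at least 2-fold higher relative to the median gene, compared with 9.52% of all genes tested, and 0 members were 2-fold lower, compared with 7.38%. A single gene of 6 is near the background share, so the count says nothing particular about the set. Cdh1 had 139.6 and 169 CPM, a log2 ratio of 0.28 (0.24 to 0.31). Equal weight for each of 5 named classes moved Cdh1 to 0.10 and Cldn7 to 1.59.

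The splicing regulators moved little. Esrp1 had 91.0 and 80.1 CPM, a log2 ratio of -0.18 (-0.23 to -0.14), and Esrp2 had 42.1 and 45.0 CPM, a ratio of 0.10 (0.03 to 0.16). Without the 7 clusters that were shallow or led by stress genes, Esrp2 changed sign, to -0.027. Grhl2 had 45.1 CPM in control cells (3504 UMIs) and 25.4 CPM in induced cells (2499 UMIs), a log2 ratio of -0.83 (-0.90 to -0.75) and -0.75 relative to the median gene. It was the member with the lowest ratio, with 88.1% of tested genes above it.

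Epcam varied widely between classes of skin epithelium in both libraries. In the control library its order ran from upper follicle-like cells (747 CPM, 619 cells) through granular-like (565, only 10 cells), hair matrix-like (419.5), outer root sheath-like (327), spinous-like (137) and sebaceous-like (103) to basal epidermal-like cells (84.9 CPM, 550 cells). Intervals of neighbours in this order did not overlap. In the induced library upper follicle-like cells again came first (1193 CPM, 977 cells), but basal epidermal-like cells (419 CPM, 1394 cells) had the same level as spinous-like ones (427), with overlapping intervals. Hair matrix-like cells (235 CPM, 51 cells) came last of the epithelial classes there.

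Cdh1 was more even. Among epithelial classes of the control library it was highest in upper follicle-like (189.9 CPM) and spinous-like cells (173) and lowest in sebaceous-like cells (36.1), with basal epidermal-like cells at 143 and outer root sheath-like cells at 109. Among epithelial classes of the induced library, spinous-like (222), upper follicle-like (204) and granular-like cells (199) came first, and the last 2 overlapped. Langerhans and dendritic-like cells, which are not epithelial, stood above all of these there (271 CPM, 23 cells). Their interval (225 to 323 CPM) overlapped that of spinous-like cells (213 to 231 CPM). Esrp2 had another order among epithelial classes, with sebaceous-like cells highest in the control library (109 CPM), spinous-like cells next (68.4) and outer root sheath-like cells lowest (14.0). Grhl2 ran against it, with outer root sheath-like (60.5) and hair matrix-like cells (59.9) highest, spinous-like (22.9) and sebaceous-like cells (20.2) low, and granular-like cells at 4.72 CPM in the induced library (127 cells). Across the 21 control clusters with at least 30 cells, Esrp2 and Grhl2 correlated at r = -0.72, and across the 20 induced clusters at r = -0.50. This is a description over clusters that share a library.

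**Figure D1:**
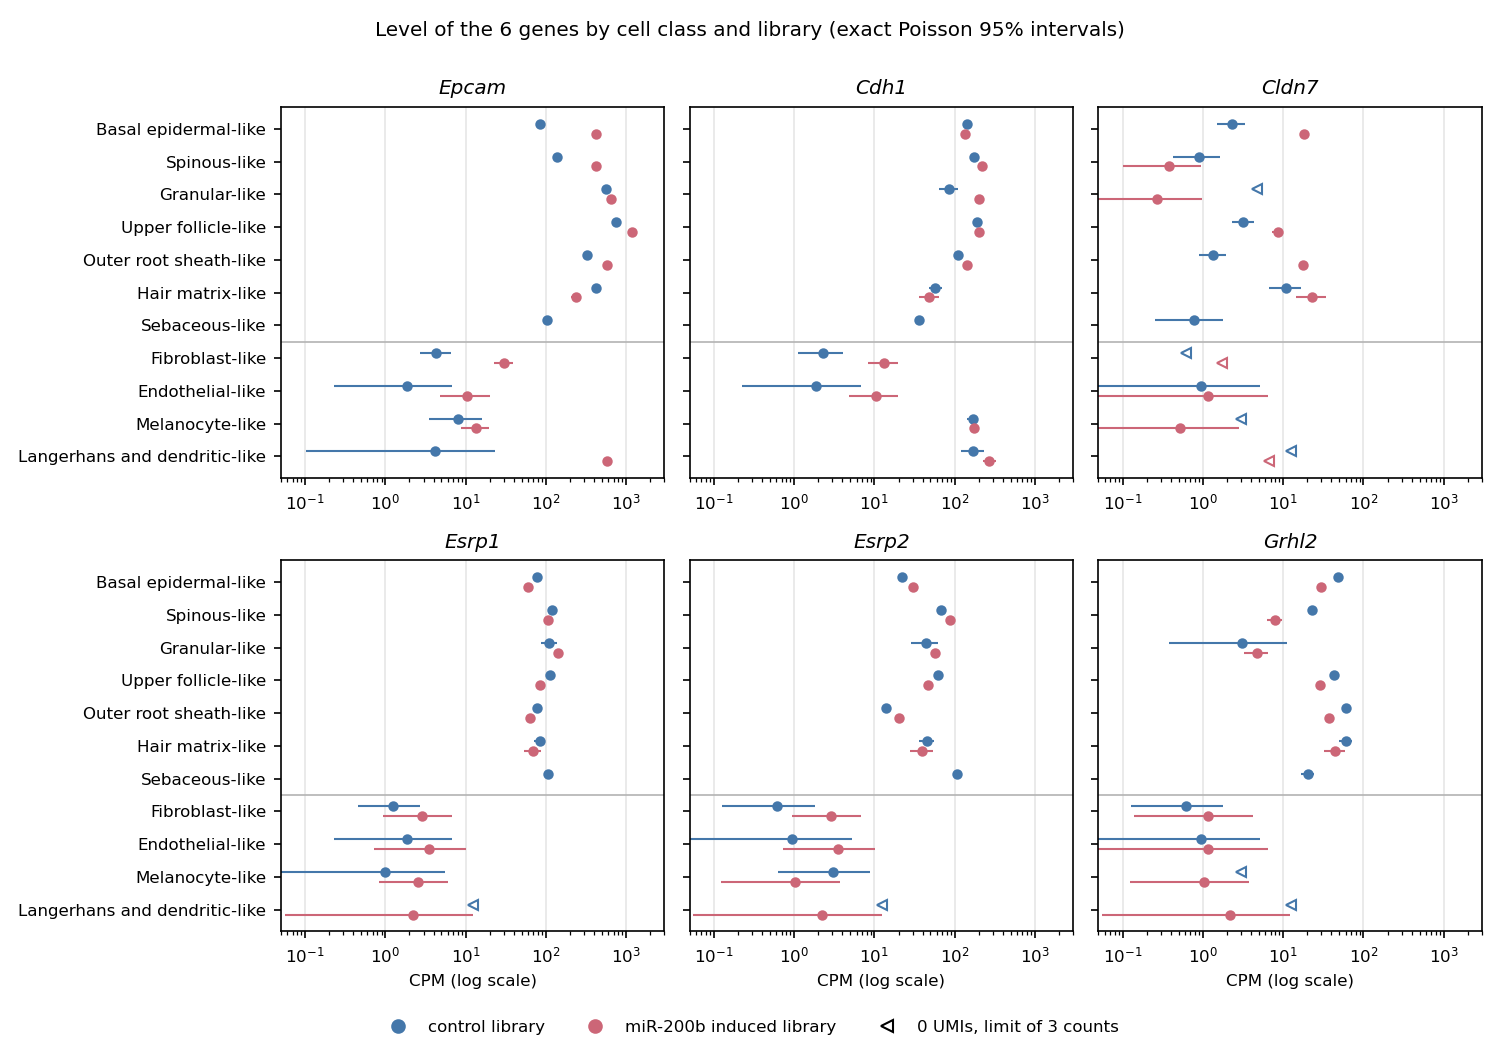
Level of each gene in CPM (log axis) by cell class, for the control library (blue) and the induced library (red), with exact Poisson 95% intervals and open triangles at the limit of 3 counts where a class had 0 UMIs. Epithelial classes lie above the grey line, where Epcam in basal epidermal-like cells moves from 84.9 to 419 CPM, and Cdh1 is the gene that stays high in melanocyte-like and Langerhans and dendritic-like cells below it.

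Basal epidermal-like cells, the dividing layer of the epidermis, had little Epcam in the control library and more in the induced library. Epcam had 927 UMIs in 550 control cells (84.9 CPM) and 14122 UMIs in 1394 induced cells (419 CPM), a log2 ratio of 2.30 (2.21 to 2.40). By cluster, the control cells lay at 76.5 CPM (cluster E2, 463 cells) and 118 CPM (cycling cluster E33, 78 cells). The induced cells lay at 395 CPM (E1, 537 cells), 411 CPM (E3, 414 cells), 454 CPM (E7, 327 cells) and 458 CPM (cycling cluster E28, 115 cells). All 4 induced clusters of this class were above both control clusters, as was the case for 25.9% of the 10795 genes tested in it. Cluster E3 was led by the stress genes Nfkbia, Gadd45b, Atf3 and Socs3, and the Epcam ratio without it was 2.31. Whether stress or the makeup of the library had a part in the difference was not tested.

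The size of the basal ratio depends on which clusters are named basal. Induced cluster E7 shared 5 of its 10 leading genes (Ccl27a, Slco2a1, Pou3f1, Sostdc1 and Il1r2) with E10, a cluster of 297 control and 2 induced cells that did not meet the naming rule and stayed unnamed. Epcam had 303.5 CPM in the control cells of E10 and 454 CPM in E7, a log2 ratio of 0.58 (0.49 to 0.67). With E10 counted as basal the class ratio was 1.41 (1.35 to 1.47), and without E7 it was 2.28 (2.18 to 2.38). Of the other members, Cldn7 had 3 UMIs (0.55 CPM) in E10 and 42 UMIs (6.41 CPM) in E7, Esrp2 had 27.1 and 27.2 CPM, and Grhl2 55.9 and 32.7 CPM. The interval of the Esrp2 ratio in this pair, -0.32 to 0.33, spanned 0.

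Cldn7, too, was scarce in control basal cells, at 25 UMIs (2.29 CPM), and reached 620 UMIs (18.4 CPM) in induced ones, with a log2 ratio of 3.01 (2.43 to 3.64). Its induced clusters ran from 6.41 CPM in E7 to 27.2 CPM in E3, and its control clusters from 1.38 to 2.54 CPM, so the groups did not overlap. Without the stress-led E3 the class ratio was 2.63. Esrp2 was also higher in every induced cluster of the class, at 24.5 to 32.7 CPM against 18.8 to 23.2 CPM, a class ratio of 0.44 (0.23 to 0.65). Grhl2 was lower in every induced cluster of the class, at 26.6 to 38.8 CPM against 47.0 to 49.1 CPM, with a class ratio of -0.69 (-0.85 to -0.54). All induced clusters of the class lay above both control clusters for 25.9% of genes, and below both for 16.8%. Cdh1 (143 and 133 CPM) and Esrp1 (78.2 and 59.7 CPM) had overlapping clusters, and their class ratios were -0.10 (-0.19 to -0.02) and -0.39 (-0.51 to -0.27).

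Of the 6 genes, Epcam and Cldn7 were at least 2-fold higher in basal cells relative to the median gene, where 6.86% of all tested genes were, and 0 were 2-fold lower, where 5.87% were. A gate on keratin UMIs in place of clusters, which also took in follicle cells low in Krt1 and Krt10 (2912 control and 2594 induced cells), gave 353 and 617 CPM for Epcam, a ratio of 0.80. It gave -0.089 for Esrp2 and 0.15 for Cdh1, both of the other sign than in the clusters. For Cldn7 and Grhl2 the gate gave 2.92 and -0.68.

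Spinous-like cells, the layer above, had 137 CPM of Epcam in 317 control cells and 427 CPM in 231 induced cells. The ratio was 1.63 (1.55 to 1.72). The 2 control clusters differed from each other, at 46.8 CPM in E16 and 283 CPM in E31. The leading genes of E31 held Krt1 and Krt10 beside the upper follicle markers Defb6 and Cst6. Its raised spinous markers were Krt1, Krt10, Krtdap, Sbsn, Dsg1a, Dsc1, Them5 and Dmkn. The largest induced cluster, E18, had 403 CPM and lay above both control clusters. The size of this ratio moved with the processing, which also changed the cells in the class: it was 3.05 with clustering on library-centred genes, 3.12 with the stricter cell filter, 3.32 with doublets kept, and 1.77 in a gate on Krt1 and Krt10. Grhl2 had 257 UMIs (22.9 CPM) in control and 84 UMIs (7.85 CPM) in induced cells, a ratio of -1.55 (-1.92 to -1.18). It was -1.43 in the gate, -1.18 with the stricter filter and -0.77 with doublets kept. It was the 1 member at least 2-fold lower in this class, where 8.04% of genes were, and Epcam the 1 member 2-fold higher, where 5.98% were. Cldn7 had 10 and 4 UMIs here, a ratio of -1.25 with an interval of -3.38 to 0.54, whose upper bound lay under the lower bound of 2.43 in basal cells.

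Upper follicle-like cells, which include the opening of the hair canal, already had the most Epcam in the control library. The class ratio was 0.68 (0.64 to 0.71), from 747 to 1193 CPM. Control clusters ranged from 322 CPM in E8, led by the heat-shock genes Hspa1a and Hspa1b, to 1495 CPM in E21. Induced clusters ranged from 719 CPM in E30 to 2314 CPM in E23, so the groups overlapped. E21 also had the companion layer markers Pinlyp and Krt75 among its leading genes. Without E8 the ratio was 0.20, while the stricter cell filter and a coarser clustering each gave 1.54. Cldn7 had 3.17 and 8.56 CPM, a ratio of 1.43 (0.94 to 1.96) that ran from 0.82 with doublets kept to 2.21 with library-centred clustering. It was the 1 member at least 2-fold higher (6.9% of genes), with 0 members 2-fold lower (4.32%). Cdh1 had 189.9 and 204 CPM, and its ratio of 0.10 changed sign without E8, to -0.10. Esrp1 and Esrp2 had ratios of -0.41 and -0.44, but Esrp2 turned to 0.245 with the stricter cell filter and to 0.57 at the coarser clustering, where Esrp1 turned to 0.12. The ratio of Grhl2 was -0.56 (-0.73 to -0.39), and -1.01 with the stricter filter.

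Outer root sheath-like cells, the outer layer of the follicle that is continuous with the basal epidermis, had 327 and 572 CPM of Epcam (1373 and 808 cells), a ratio of 0.81 (0.76 to 0.85). Their Cldn7 difference was wide, from 28 UMIs (1.35 CPM) in control cells to 280 UMIs (17.7 CPM) in induced cells, a ratio of 3.71 (3.14 to 4.32). By cluster, however, Cldn7 was at 22.1 CPM in E13 and 19.9 CPM in E9, at 4.67 CPM in E22, and at 0 UMIs in the 30 induced cells of E12. Control clusters lay between 0 UMIs and 2.06 CPM. E13 had the stress genes Atf3, Nr4a1, Ier3, Socs3 and Irf1 among its leading genes, and E9 the cycling genes Cenpf and Top2a. Without the stress-led clusters of both libraries the Cldn7 ratio was 4.04 (3.20 to 5.03), and the part of stress or cycling in it was not tested. Cldn7 was the 1 member 2-fold higher (8.07% of genes), with 0 lower (5.24%). Grhl2 had 60.5 and 37.5 CPM, a ratio of -0.69 (-0.84 to -0.55), Esrp2 a ratio of 0.52 (0.29 to 0.76) and Cdh1 a ratio of 0.38 (0.29 to 0.46).

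Hair matrix-like cells, the dividing cells at the base of the follicle, went the other way for Epcam. Cells of both libraries lay in 1 cluster, E27, led by Krt35, S100a3, Shh and Msx1. Epcam had 778 UMIs in 66 control cells (419.5 CPM) and 238 UMIs in 51 induced cells (235 CPM), a ratio of -0.84 (-1.05 to -0.63). With doublets kept the class held 118 control and 39 induced cells, and the ratio was -0.022, while the mean of per-cell CPM gave -0.51. Cldn7 had 20 and 23 UMIs (10.8 and 22.7 CPM), a ratio of 1.07 (0.14 to 2.01), and its level was the highest of the control classes. The intervals of Cdh1, Esrp1, Esrp2 and Grhl2 spanned 0.

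Clusters that held at least 30 cells of each library compare like with like more closely. In E21, an upper follicle-like cluster led by Pinlyp and Krt75 (70 and 92 cells), Epcam had 1495 and 1732 CPM, a ratio of 0.21 (0.15 to 0.27). In E23, led by Wfdc18 and Krt6a (98 and 59 cells), it had 1077 and 2314 CPM, a ratio of 1.10 (1.01 to 1.20). In E12, outer root sheath-like cells led by Sfrp1 and Nppc (257 and 30 cells), it had 179.9 and 255 CPM, a ratio of 0.50 (0.04 to 0.94). Epcam was thus higher in 3 of 4 shared clusters. The Grhl2 interval spanned 0 in all 4, with ratios from -0.43 to 0.11. In the hair matrix it ran from -0.96 to 0.08 and so also took in the basal class ratio of -0.69. The lower Grhl2 levels above came from classes made up mostly of clusters of a single library. Whether this had a part in them was not tested. Gm13648 in the induced cells of the shared clusters was 46.9, 35.8, 53.2 and, in the matrix, 315 CPM, compared with 724 CPM in induced basal cells. Pinlyp, Krt75 and Krt6a, leading genes of E21 and E23, were on the marker list of the companion layer of the follicle. The naming rule placed both clusters in the upper follicle class, and the companion layer was not set apart.

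**Figure D2:**
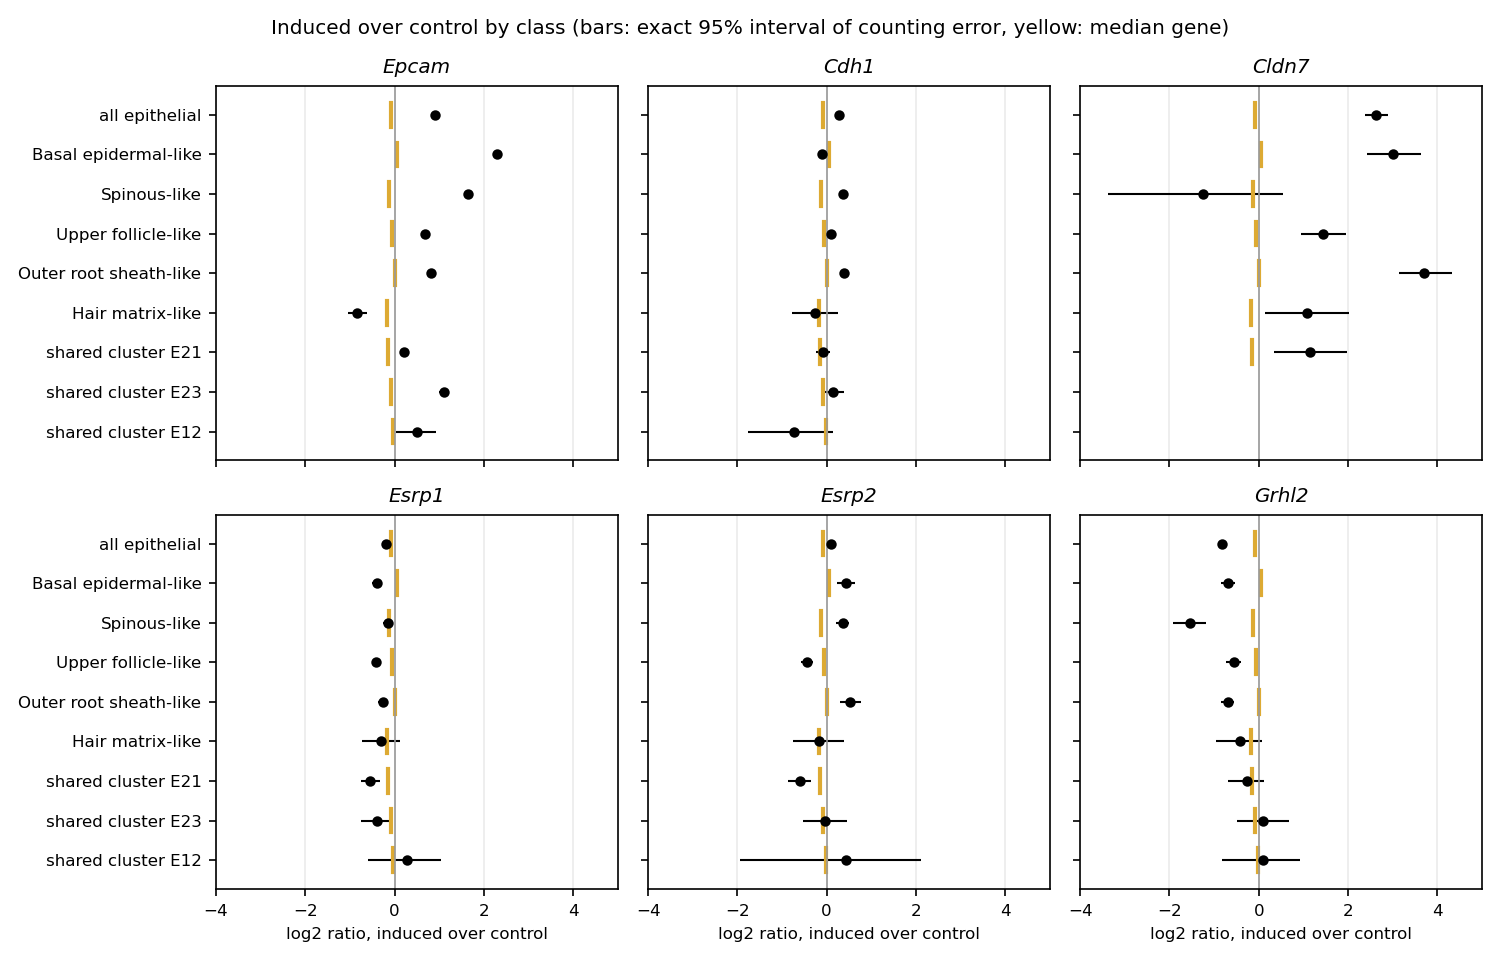
Log2 ratio of induced over control for each gene over all epithelial cells, in 5 classes and in 3 further shared clusters, with exact 95% intervals of counting error and the median gene of each group in yellow. Among the groups plotted, Epcam lies to the right of the median gene in all but hair matrix-like cells (-0.84), Cldn7 reaches 3.71 in outer root sheath-like cells, and Grhl2 intervals reach 0 in the shared clusters.

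Other epithelial cells could not be compared in the same way. Only 10 granular-like cells came from the control library, compared with 127 from the induced one. Their Epcam levels were 565 and 656 CPM, a ratio of 0.22 (0.06 to 0.37) that was -0.14 relative to the median gene of the class. There were 214 control but only 3 induced sebaceous-like cells, and the control levels were low for Epcam (103 CPM) and Cdh1 (36.1 CPM) and high for Esrp2 (109 CPM). Unnamed clusters held 815 control and 495 induced cells, with 354 and 404 CPM of Epcam. In them Esrp2 had 25.1 and 77.0 CPM and Grhl2 52.9 and 17.6 CPM, but their leading genes differed (Ccl27a, Rcan1 and Aldh3a1 in the control clusters, and Krt16 and Clca3a2 in the larger induced one). Over all clusters with at least 30 cells, Epcam ran from 46.8 to 1495 CPM in 21 control clusters (median 285) and from 235 to 2314 CPM in 20 induced clusters (median 537). Cldn7 medians were 1.33 and 6.23 CPM, and Grhl2 medians 49.1 and 32.3 CPM.

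**Figure D3:**
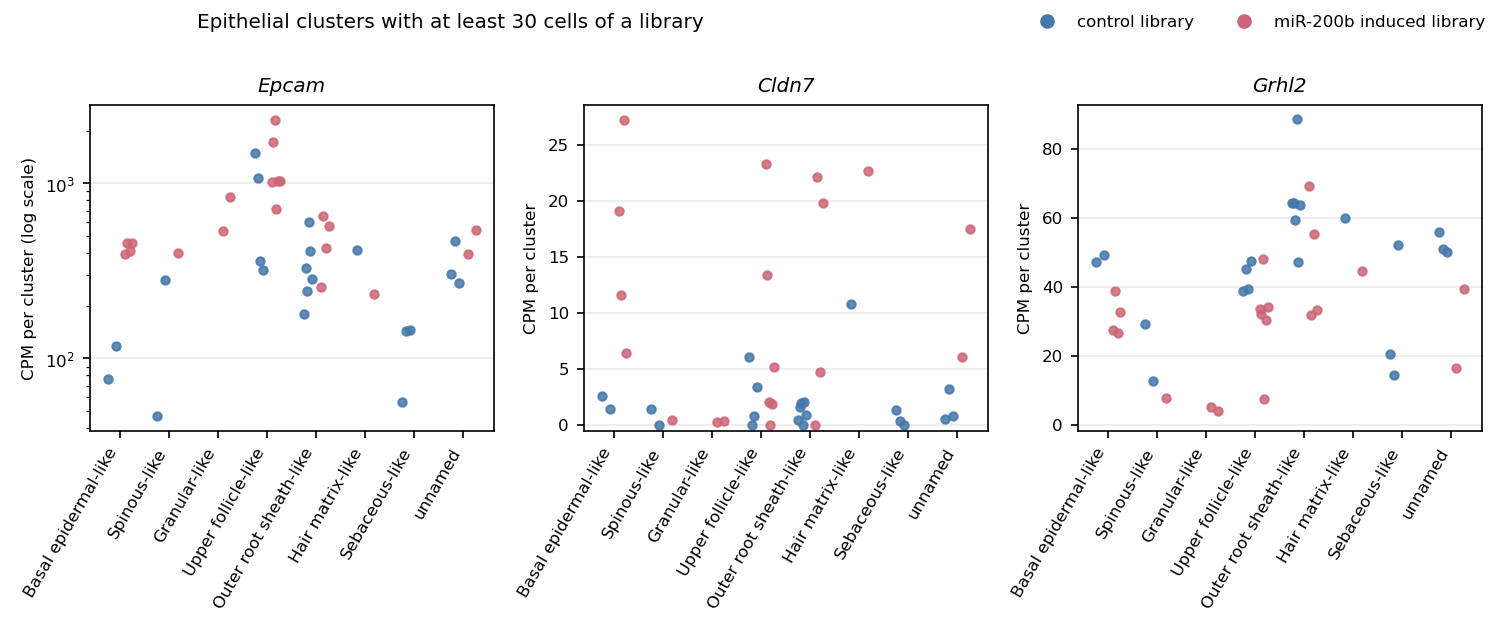
CPM of Epcam (log axis), Cldn7 and Grhl2 (linear axes) in each epithelial cluster with at least 30 cells of a library, by class, with 1 point per cluster and library. In basal epidermal-like cells the 4 induced clusters (395 to 458 CPM of Epcam) lie above the 2 control clusters (76.5 and 118 CPM), while upper follicle-like and outer root sheath-like clusters of the libraries overlap.

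Counted per cell, more induced cells had an Epcam molecule. With each cell thinned to 2000 UMIs, which left out 46 control and 260 induced cells, an Epcam UMI was seen in 37.0% (35.5 to 38.6) of the control and 63.8% (62.2 to 65.3) of the induced epithelium. Without thinning the shares were 81.5% and 94.3%. In basal epidermal-like cells the thinned shares were 13.3% and 53.0%. Fibroblast-like cells, which should lack Epcam, had 0.602% and 5.37%, at median depths of 9204 and 5971 UMIs.

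After thinning, Cldn7 was detected in 0.255% of the control and 2.37% of the induced epithelium. It was in 0 of 498 control fibroblast-like cells and 0 of 242 induced ones, where 3 counts would be 0.602% and 1.24%. Cdh1 was detected in 22.8% and 28.3%, Esrp1 in 14.8% and 13.8%, Esrp2 in 6.80% and 7.20%, and Grhl2 in 9.86% and 5.88%. One or more of the 6 genes was seen in 64.3% of the control and 80.6% of the induced epithelium. The number of cells with more than 4 of them was 0. A cell without a UMI at this depth may still express the gene.

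Levels in epithelial and other cells of these libraries were part of the choice of the genes, so the folds between them are a description. Outside epithelium Cdh1 and, in the induced library, Epcam were also found. Epcam was 75.7-fold higher in epithelial than in fibroblast-like cells of the control library (interval 49.5 to 122) and 20.4-fold higher in the induced library (15.5 to 27.3), on 21 and 52 UMIs in fibroblast-like cells. Of all genes tested, 23.7% and 18.6% were at least 2-fold higher in epithelial cells. Cldn7 had 0 UMIs in fibroblast-like cells, and its epithelial level was 3.11-fold and 6.85-fold that of 3 counts in their place. The exact lower bounds of these folds from counting error were 2.50 and 5.56. Zeb1 and Zeb2 were the reverse, with 0.116 and 1.17 CPM in control epithelial cells and 77.6 and 849 CPM in control fibroblast-like cells. Their induced levels were 0.092 and 0.875 CPM in epithelial cells, on 9 and 86 UMIs, beside 9 and 91 control UMIs, and 66.4 and 898 CPM in fibroblast-like cells. Fibroblast markers, all 8 of them detected, summed to 187 CPM in control and 104 CPM in induced epithelial cells. Of these sums Fbln1 alone made up 88.7 and 62.8 CPM, and it had 126 and 93.6 CPM in fibroblast-like cells. The sums are therefore no clean gauge of fibroblast RNA, whose part in the Zeb1 and Zeb2 levels was not tested.

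Free epithelial RNA was gauged from the keratins Krt5, Krt14, Krt1 and Krt10. The expected count of a gene in a class was taken as the keratin UMIs of the class times the gene's ratio to keratin UMIs in epithelial cells of that library. In fibroblast-like cells Epcam had 21 control UMIs (4.32 CPM) and 52 induced UMIs (30.0 CPM), 0.60 (0.37 to 0.92) and 1.11 (0.83 to 1.46) times that expectation. Epcam was 6.95-fold higher in fibroblast-like cells of the induced library, and the part of free RNA in this was not tested. Esrp1, Esrp2 and Grhl2 were likewise at 0.62 to 1.45 times the expectation in fibroblast-like cells, on 2 to 6 UMIs each. Cdh1 was at 0.74 (0.37 to 1.32) in the control library and at 1.78 (1.13 to 2.67) in the induced library. In all other cells without melanocyte-like and Langerhans and dendritic-like ones it was at 2.18 (1.62 to 2.87) in the induced library, on 50 UMIs.

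Melanocyte-like cells had Cdh1 at the level of keratinocytes in both libraries. They had 168 UMIs in 80 control cells (169 CPM) and 344 UMIs in 238 induced cells (176 CPM), a log2 ratio of 0.063 (-0.21 to 0.34). This was 68.1 and 31.6 times the level expected from keratin RNA, while Epcam in the same cells was at 1.38 and 0.66 times its own expectation. Cldn7, Esrp1, Esrp2 and Grhl2 had at most 5 UMIs there in either library.

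A small cluster of immune cells gave the sharpest contrast for Epcam. It was named Langerhans and dendritic-like from Cd74, H2-Aa, H2-Ab1, H2-Eb1 and Itgax, and its leading genes also held the macrophage genes C1qa and Lyz2. It had 15 control and 23 induced cells. Epcam had 1 UMI in the control cells and 263 UMIs in the induced ones (4.12 and 580 CPM), a log2 ratio of 7.13 (4.64 to 12.44). In the induced library 13 of 23 cells had Epcam, 12 of them at least 4 UMIs, with up to 55 UMIs in 1 cell. The level was 13.8 times that expected from keratin RNA. Of these 13 cells, 2 also had over 20 Krt14 UMIs, and without them 226 Epcam UMIs remained.

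The makeup of this cluster differed between the libraries. Cells with at least 20 UMIs of H2-Aa, a class II antigen-presentation gene, were 6 of 15 in the control and 19 of 23 in the induced library, a limit set after the values were seen. Among these cells 0 of 6 control cells had Epcam, where 3 counts would be 50% of the cells, while 12 of 19 induced cells did. Cd207, the gene of the Langerhans cell lectin langerin, had 0 UMIs in the control cells and 4 UMIs in 1 induced cell, so the name rests on the other genes. Cdh1 was present in both libraries, with 41 UMIs in 11 of 15 control cells (169 CPM) and 123 UMIs in 19 of 23 induced cells (271 CPM). Esrp1, Esrp2 and Grhl2 had 0 UMIs in the control cells and 1 UMI each in the induced cells, and Cldn7 had 0 in both. Whether the cell types in the cluster set the Epcam difference was not tested.

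**Figure D4:**
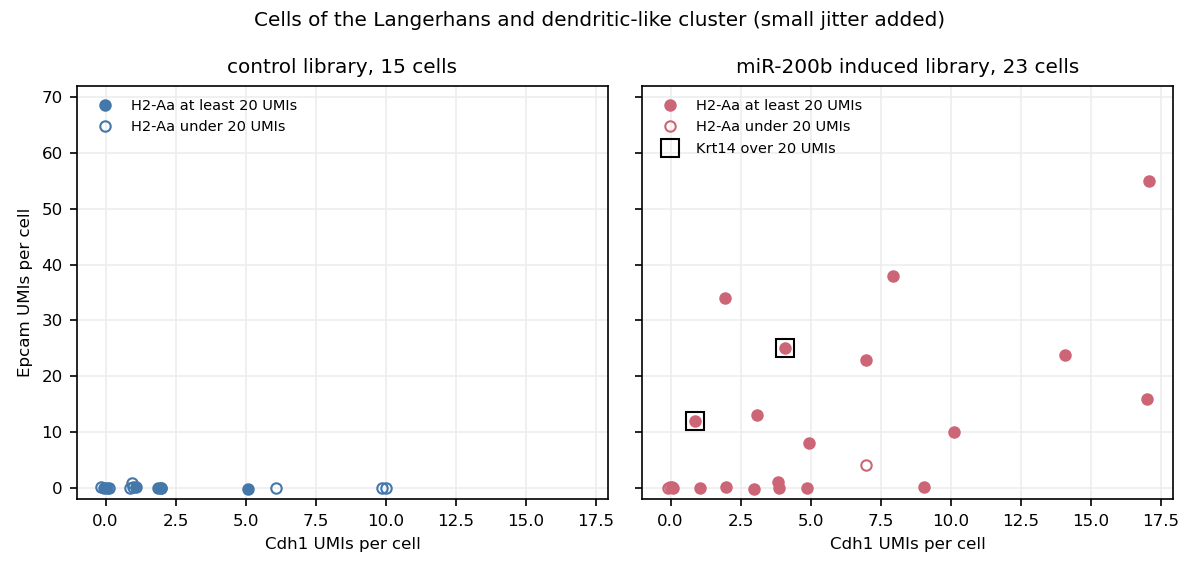
Epcam UMIs (vertical axis) against Cdh1 UMIs (horizontal axis) in each cell of the Langerhans and dendritic-like cluster, with filled points for cells with at least 20 H2-Aa UMIs and squares around cells with over 20 Krt14 UMIs. In the control library 1 of 15 cells has an Epcam UMI, and in the induced library 13 of 23 cells do, with up to 55 UMIs.

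Within induced basal epidermal-like cells Epcam, Cldn7 and Cdh1 differed little with the transcript of the miR-200b locus. Cells with 0, 1 or 2, and 3 or more Gm13648 UMIs at 2000 UMIs per cell (361, 728 and 276 cells) had 411, 417 and 429.7 CPM of Epcam. Cldn7 had 19.4, 17.6 and 19.2 CPM, and Cdh1 127, 134 and 137 CPM. Grhl2 had 30.8, 30.9 and 23.9 CPM, a log2 ratio of the last group over the first of -0.37. Cells with 0 Gm13648 UMIs after thinning still had 523 CPM of it in their sum at full depth, so as a group they did not lack the transcript. In the keratin gate Epcam was lower with more Gm13648, at 807, 522 and 481 CPM. The same order was seen in induced upper follicle-like cells, with 1300.3, 1001 and 958 CPM of Epcam and 53.1, 34.7 and 27.3 CPM of Esrp2 in 617, 299 and 54 cells. Grhl2 had the opposite order there to that in basal cells, at 27.6, 31.1 and 35.6 CPM with overlapping intervals. In outer root sheath-like cells Epcam had 587, 559 and 556 CPM, and Grhl2 had 40.7, 34.0 and 37.6 CPM, in no order. Epcam and Gm13648 correlated at r = -0.51 across the 20 induced clusters and at r = 0.59 across the 21 control clusters, where Gm13648 was scarce. Each is a description over clusters of 1 library.

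Genes related to the set in junctions, polarity or epithelial gene control numbered 63, and 58 had at least 100 UMIs. Over all epithelial cells 10 of the 58 were at least 2-fold higher relative to the median gene and 1 was 2-fold lower, beside 9.52% and 7.38% of all genes. Without centring on the median gene 7 were higher and 1 lower, and without the 7 shallow or stress-led clusters again 10 and 1. The lists were drawn up with results of these data known, and nothing particular is claimed for them. Values in parentheses below are control and induced CPM with the log2 ratio, over all epithelial cells unless a class is named. List medians are relative to the median gene, and those over all epithelial cells mix classes whose shares differ between the libraries. Class medians are given in the order basal epidermal-like, spinous-like, upper follicle-like and outer root sheath-like cells.

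Among 10 partners of EpCAM and genes of its proteolysis, 2 were higher and 0 lower, with a median of 0.51 relative to the median gene. They were Spint1, an inhibitor of the protease matriptase (47.2 and 91.9 CPM, log2 ratio 0.96), and the tetraspanin gene Tspan8 (0.39 and 2.06 CPM, 2.41). St14, the gene of matriptase itself, was just under the line at 0.99 relative to the median gene (24.6 and 46.2 CPM), as was Spint2 at 0.86. Adam10 and Adam17, proteases that shed EpCAM, were at 0.038 and -0.17 on the same scale. Class medians of this list were 0.58, 0.55, 0.013 and 0.050.

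Of 9 other adherens junction genes, 0 were 2-fold higher or lower, with a median of 0.46. Class medians were 0.32, 0.45, -0.086 and 0.079. P-cadherin, from Cdh3, had 47.7 and 83.6 CPM (log2 ratio 0.81) and β-catenin, from Ctnnb1, 359 and 354 CPM (-0.022). Of 14 other tight junction genes 2 were higher, Cldn4 (43.3 and 129 CPM, log2 ratio 1.58) and Cldn23 (2.90 and 6.61 CPM, 1.19). The median was 0.37, with class medians of -0.068, 0.18, 0.035 and 0.66. Cldn4 stood close to Cldn7 in basal cells, with 8.61 and 73.3 CPM and a ratio of 3.09. Tjp1, which codes for the scaffold protein ZO-1, was the lowest of the list (25.5 and 16.2 CPM, -0.65).

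Among 8 epithelial transcription factors, Grhl3, a paralog of Grhl2 active in the upper epidermis, was higher (9.75 and 25.8 CPM, 1.40), as was Ehf (10.2 and 20.2 CPM, 0.99). The list's median was 0.43, and its class medians were 0.31, 0.55, -0.035 and -0.0028. Ovol2, a zinc finger repressor of mesenchymal genes, was the 1 lower gene (17.6 and 5.82 CPM, -1.59). Grhl2 and Grhl3 thus differed in direction, and Grhl1 had 58.8 and 69.1 CPM (0.23). Ovol1, which acts in differentiating keratinocytes, had 37.5 and 70.5 CPM, and 0.99 relative to the median gene. In basal cells Ovol2 had 15.8 and 4.45 CPM (-1.82) and in upper follicle-like cells 22.8 and 10.0 CPM (-1.19).

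Of 10 genes of polarity, trafficking and simple epithelium, 3 were higher. They were Rab25, a GTPase of epithelial membrane recycling (228 and 527 CPM, 1.21), and the keratins Krt18 (1.37 and 7.43 CPM, 2.44) and Krt19 (3.23 and 16.7 CPM, 2.37). The list's median was 0.82, with class medians of 0.70, 0.49, 0.42 and 1.07. Krt8, the usual partner of Krt18, had 2.85 and 2.11 CPM (-0.43). Of 12 mesenchymal genes and repressors 7 had enough UMIs, and 1 was higher, Sparc (174 and 346 CPM, 0.99), while the list's median was -0.25. Its class medians, on 3 or 4 genes each, were 0.31, -0.70, 0.83 and 0.79. Fibroblast-like cells had 13399.6 and 7799 CPM of Sparc. Snai2, the most abundant of the repressors in epithelial cells, had 42.8 and 33.3 CPM (-0.36).

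**Figure D5:**
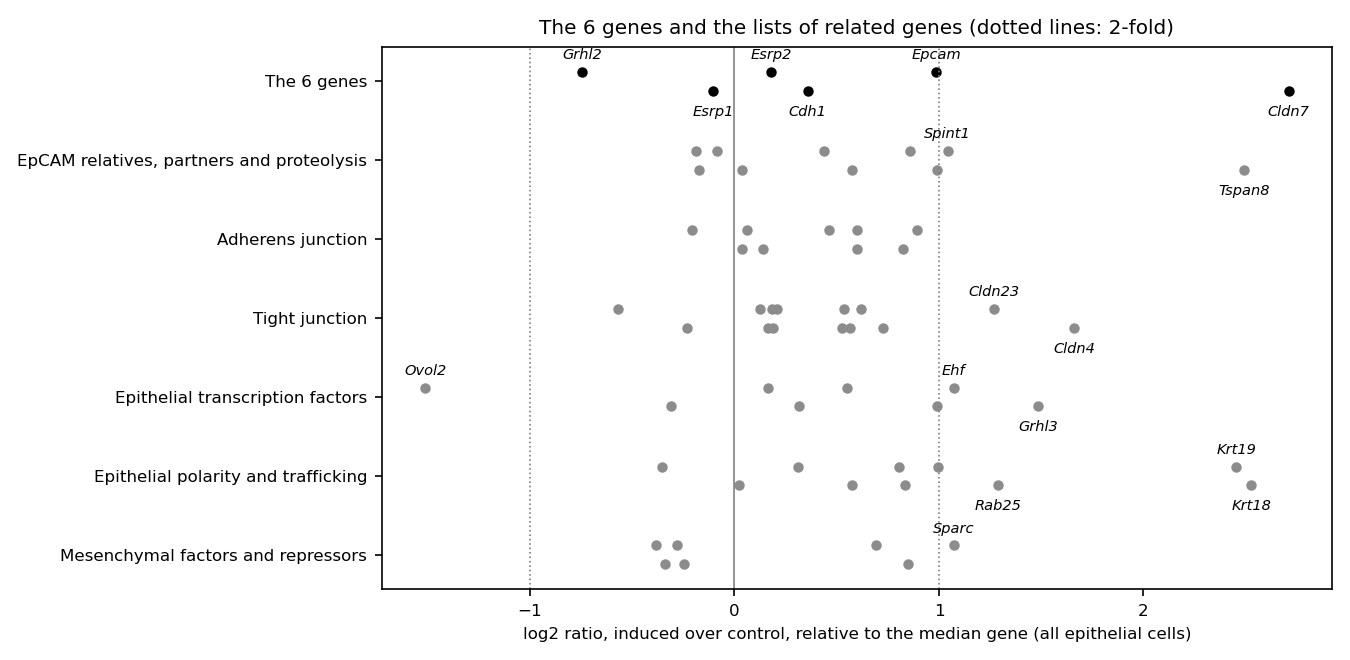
Log2 ratio of induced over control relative to the median gene, over all epithelial cells, for the 6 genes (black) and the 58 related genes tested (grey), with dotted lines at a 2-fold difference. Cldn7 (2.71), Krt18, Tspan8 and Krt19 lie farthest to the right, Epcam (0.99) just inside the line, and Ovol2 (-1.51) lies farthest to the left with Grhl2 (-0.75) as the lowest of the 6.

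Genes whose levels ran most like those of Epcam over clusters were found in both libraries from 4677 genes, by the lower of the r values over 21 control and 20 induced clusters. They were Socs5 (r of 0.86 and 0.80), Dapk2 (0.79 and 0.79), Krt17 (0.87 and 0.74), Serpina11 (0.73 and 0.76), Krt7 (0.73 and 0.77), Arrdc3 (0.72 and 0.77), Adam10 (0.72 and 0.76) and Pla2g7 (0.72 and 0.84). Krt17, a keratin of follicle epithelium, had 3226 and 4683 CPM over all epithelial cells. Most like Cdh1 were S100a11 (0.88 and 0.81), Dusp7 (0.78 and 0.76), Chl1 (0.77 and 0.75) and Ly6d (0.74 and 0.76). Among the 6 genes the closest pair in both libraries was Esrp1 and Esrp2 (0.59 and 0.63), and Epcam and Cdh1 correlated at 0.50 and 0.62. Epcam and Cldn7, whose proteins bind, were at 0.25 and -0.14 across clusters.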

How the data were processed

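Single-cell RNA libraries (10x Genomics 3′ v3.1) from 2 samples were analysed. The deposited values were raw UMI counts per gene and barcode, made by the authors with Cell Ranger 6.0.0 on mm10, per the submitters' processing notes. Members and lists were chosen with earlier results of these data known. Barcodes with at least 1000 UMIs, 500 genes and under 15% mitochondrial UMIs were kept (5178 control, 5258 induced). Scrublet's automatic threshold marked 7 and 6 cells and was not usable, so the 7% of barcodes with the highest scores were removed (362 and 368). Both libraries were clustered together with Leiden (2000 variable genes, 30 components, 15 neighbours, resolution 1.0, then 2.0 within clusters of at least 3000 CPM of keratins). A class name needed 3 markers in 25% of cells and 1.5-fold raised, with 20 CPM added; these limits were set after the data were seen. UMIs were summed per class and library. CPM have exact Poisson, ratios exact conditional binomial and shares exact Clopper-Pearson 95% intervals, and a count of 0 the limit of 3 counts. Related genes were named when 2-fold off the median gene, one list gene is not reported here and was left out of the counts; genes with a like profile by rank of r (log2 of CPM plus 10, at least 50 CPM in 1 cluster of each library). A gene near a limit, or singled out in a class, was named after its values were seen. The ratios were tested on simulated data, and thinning was checked on the deposited counts. Whether a difference comes from more RNA per cell or other cells in a class cannot be told apart in sums. Alternatives were doublets kept, a stricter filter (2000 UMIs, 1000 genes, 10% mitochondrial), library-centred clustering, resolution 1.0, keratin gates, median-gene centring and means of per-cell CPM. Clustering used scanpy 1.11.5 with leidenalg 0.10.2 and scikit-learn 1.9.0, intervals scipy 1.17.1, tables pandas 2.3.3 with numpy 2.4.6, and plots matplotlib 3.10.9, all in Python 3.11.15.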

Additional observations from a re-analysis of the deposited data

Results flagged for a closer look

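Epcam was higher in the induced library in basal epidermal-like cells, with a log2 ratio of 2.30, and lower in hair matrix-like cells, with a log2 ratio of -0.84. Cdh1 was higher in outer root sheath-like cells, at 0.38, and lower in basal epidermal-like cells, at -0.10. Esrp2 was higher in outer root sheath-like cells, at 0.52, and lower in upper follicle-like cells, at -0.44. Each pair stands out because the same contrast went opposite ways in 2 classes of at least 50 cells per library, with counting intervals that excluded 0. In each of the 3 pairs the difference was not tested, as no library had a replicate. All 3 pairs depend on the processing. Epcam in hair matrix-like cells came to -0.022 with doublets kept. Cdh1 in basal epidermal-like cells turned to 0.023 with the mean of per-cell CPM and to 0.15 in the basal keratin gate, and Esrp2 in upper follicle-like cells turned to 0.245 with the stricter filter and to 0.57 at resolution 1.0.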

How the results depend on the processing

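No paired analysis was possible because each group had 1 library. Over all epithelial cells Epcam, Cdh1, Cldn7, Esrp1 and Grhl2 kept the direction of their ratios under all 8 alternatives run. Among these, library-centred clustering left the numbers of epithelial cells at 3972 and 4106. Median-gene centring shifted every ratio by the same amount, so both could hardly change a direction. Esrp2 (0.10) turned to -0.027 without shallow and stress-led clusters. Without these clusters, chosen after seeing the data, Epcam was 1.02 and Cdh1 0.32. With named classes weighted equally, also chosen after seeing the data, Cdh1 was 0.10, Cldn7 1.59 and Esrp1 -0.30. With median-gene centring the ratios were 0.99 for Epcam, 0.36 for Cdh1, -0.10 for Esrp1, 0.18 for Esrp2 and -0.75 for Grhl2. The mean of per-cell CPM gave 1.08 for Epcam, 0.37 for Cdh1, -0.089 for Esrp1 and 0.28 for Esrp2. With the epithelial call at 10000 CPM of keratins Epcam was 0.85 and Esrp2 0.17, and with doublets kept Cdh1 was 0.32. In basal epidermal-like cells Epcam moved from 2.30 to 0.80 in the basal keratin gate and to 1.41 with cluster E10 counted as basal, an alternative chosen after seeing the data, and lay within its interval under the other 8, of which leaving out cluster E7 (2.28) was also chosen then. Without thinning, the shares of epithelial cells with an Epcam UMI were 81.5% in the control and 94.3% in the induced library. The counts of related genes 2-fold higher (10) or lower (1) came to 10 and 1 with at least 20 UMIs, 7 and 1 without centring, and 10 and 1 without the clusters named above. Within classes, 7 of 210 further values changed sign: Cdh1 in basal epidermal-like cells to 0.023 (per-cell mean) and 0.15 (gate), Esrp2 there to -0.089 (gate), Cdh1 in upper follicle-like cells to -0.10 (without stress-led clusters), Esrp1 there to 0.12 (resolution 1.0), and Esrp2 there to 0.245 (stricter filter) and 0.57 (resolution 1.0). The cause of each was not tested. With doublets kept, no cluster was named Langerhans and dendritic-like, so its values have no such check. Depth limits the Cldn7 ratios, with 25 UMIs in control basal epidermal-like cells, 20 in control hair matrix-like cells, and 10 and 4 in spinous-like cells.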
